A study of Homo sapiens with 10 samples.

Results

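The E2F transcription factors and the pocket proteins of the RB family were examined in SH-SY5Y cells, an established human neuroblastoma line, after treatment with paraquat. Of 10 genes named for this set, 9 had a row of the deposited array table that was annotated to a single gene symbol, out of 14232 genes measured in this way. They were the activators E2F1, E2F2 and E2F3, the canonical repressors E2F4 and E2F5, the atypical repressors E2F7 and E2F8, and the pocket proteins RB1 and RBL1. RBL2 was left out because its row is shared with the neighbouring gene AKTIP. Each of the 9 genes had 1 such row, a transcript cluster that summarises the exon probes of the locus. There were 10 exon arrays, 5 of cells exposed to paraquat (numbered 8, 12, 14, 18 and 20 in the sample titles) and 5 of untreated control cells (numbers 7, 11, 13, 17 and 19). Paraquat is a herbicide that cycles between redox states and yields superoxide. The labels refer to an earlier publication for the exposure, and its dose and duration are not known here. All arrays came from a single cell line. Nothing in the labels tells whether replicate arrays stand for separate cultures.

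E2F factors bind DNA at the promoters of genes needed for DNA synthesis and division. In resting and early G1 cells, pocket proteins cover the activation domain of E2Fs and recruit corepressors, and phosphorylation by cyclin-dependent kinases releases them as cells commit to S phase. E2F1, E2F2 and E2F3 then drive transcription. E2F4 and E2F5 act mainly with RBL1 and RBL2 as repressors, and such pairs form part of the DREAM complex. E2F7 and E2F8 bind DNA through a pair of DNA-binding domains of their own, without a DP partner or a pocket protein, and repress the activator genes late in S phase. In neuroblastoma, as in other tumours, this circuit governs entry into the cell cycle.

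Several of these genes are themselves E2F targets, and the 100 bases before their start sites are shown because 3 of the 4 genes that fell after paraquat share a motif there (the table has no entry for the other, E2F8). The sequences are from RefSeq, build GRCh38.p14, read 5′ to 3′ on the strand of the gene. Capitals mark matches on either strand to any of 4 E2F motifs: TTTCCCGC, TTTCGCGC, TTTGGCGC and TTTGCCGC. E2F3 and E2F7, which did not pass the test, are shown for comparison.
E2F1, chr20:33686386-33686485, minus strand: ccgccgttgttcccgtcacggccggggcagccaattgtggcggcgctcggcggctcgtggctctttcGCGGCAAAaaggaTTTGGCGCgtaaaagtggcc
E2F2, chr1:23531234-23531333, minus strand: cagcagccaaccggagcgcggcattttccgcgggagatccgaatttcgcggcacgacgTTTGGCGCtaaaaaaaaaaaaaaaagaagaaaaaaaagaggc
RBL1, chr20:37095998-37096097, minus strand: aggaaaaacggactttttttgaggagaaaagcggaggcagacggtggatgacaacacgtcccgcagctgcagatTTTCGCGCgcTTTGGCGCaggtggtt
E2F3, chr6:20401779-20401878, plus strand: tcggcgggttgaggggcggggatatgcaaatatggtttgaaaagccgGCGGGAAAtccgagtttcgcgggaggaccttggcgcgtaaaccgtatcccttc
E2F7, chr12:77065570-77065669, minus strand: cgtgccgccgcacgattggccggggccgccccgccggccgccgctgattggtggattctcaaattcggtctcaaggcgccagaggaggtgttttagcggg

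TTTGGCGC lay 20 bases before the start site of E2F1, 42 before that of E2F2 and 16 before that of RBL1. RBL1 also held TTTCGCGC 26 bases before its start, and E2F1 held TTTGCCGC on the opposite strand. E2F3 had no TTTGGCGC but held TTTCCCGC on the opposite strand. The promoter of a second E2F3 start site, 1735 bases further into the gene, held none of the 4 motifs. The related TTTCGCGG, added after these sequences were seen, occurred in E2F1, E2F2 and E2F3, at 37, 57 and 39 bases before the start. In E2F1 it overlaps the TTTGCCGC match. The window of E2F7 held no match, which says only that these letters are not in it. Of the 9 genes, 7 had a promoter of 300 bases in the table (250 before and 50 after the start), and 4 of the 7 held at least 1 of the 4 motifs. The same was true of 5.56% of 11386 measured genes with a promoter, and TTTGGCGC alone occurred in 1.09% of them. E2F4 and RB1 had no match. The RB1 entry starts 172699 bases inside the gene and is therefore not the promoter of the full-length transcript. E2F5 and E2F8 had no entry.

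Sympathetic neuroblast markers were expressed: the mean of 7 measured markers was 8.64 to 8.90 after paraquat and 9.53 to 9.74 in controls, and 6 of them fell. Over all genes, 14.2% fell and 9.55% rose. Glial markers had means of 4.61 to 5.26 after paraquat and 4.56 to 5.09 in controls, with 0 of 3 called. Of 4 leukocyte markers, with means of 5.02 to 5.21 after paraquat and 4.48 to 4.74 in controls, CD68 and CD14 rose, and the defining marker PTPRC was near the bottom of the range (mean 2.72 after paraquat and 2.67 in controls). Of 7 mesenchymal markers, with means of 8.60 to 8.99 after paraquat and 8.40 to 8.57 in controls, SNAI2 rose and 6 were not called. Of these 6, VIM (0.25), FN1 (0.50), YAP1 (0.33) and PRRX1 (0.05) had log2 changes above 0, and COL1A1 (-0.51) and COL3A1 (-0.62) below 0. The part of these shifts in the changes of the E2F and RB genes was not tested.

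After paraquat, 4 of the 9 genes fell and 0 rose. Those that fell were E2F8, E2F2, RBL1 and E2F1, which span the activators, the atypical repressors and the pocket proteins. E2F3, E2F4, E2F5, E2F7 and RB1 did not pass the test. The test was limma's moderated test across all 22011 rows, with a gene called at a Benjamini-Hochberg adjusted p under 0.05. At that threshold 23.8% of all genes were called, 14.2% lower and 9.55% higher. The groups did not overlap for the 4 genes that fell, while 19.9% of all genes had groups that did not overlap, and 11.6% of all genes were lower without overlap. By unadjusted p under 0.05 the counts were also 4 lower and 0 higher. The share of all genes under that threshold was not computed, so this count and the unadjusted counts of lists below have no background. In these bulk samples, fewer cells of a kind (such as cells in S phase) and less RNA per cell cannot be told apart. The median log2 change over the 9 genes was -0.13, against -0.0041 over all genes.

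**Figure D1:**
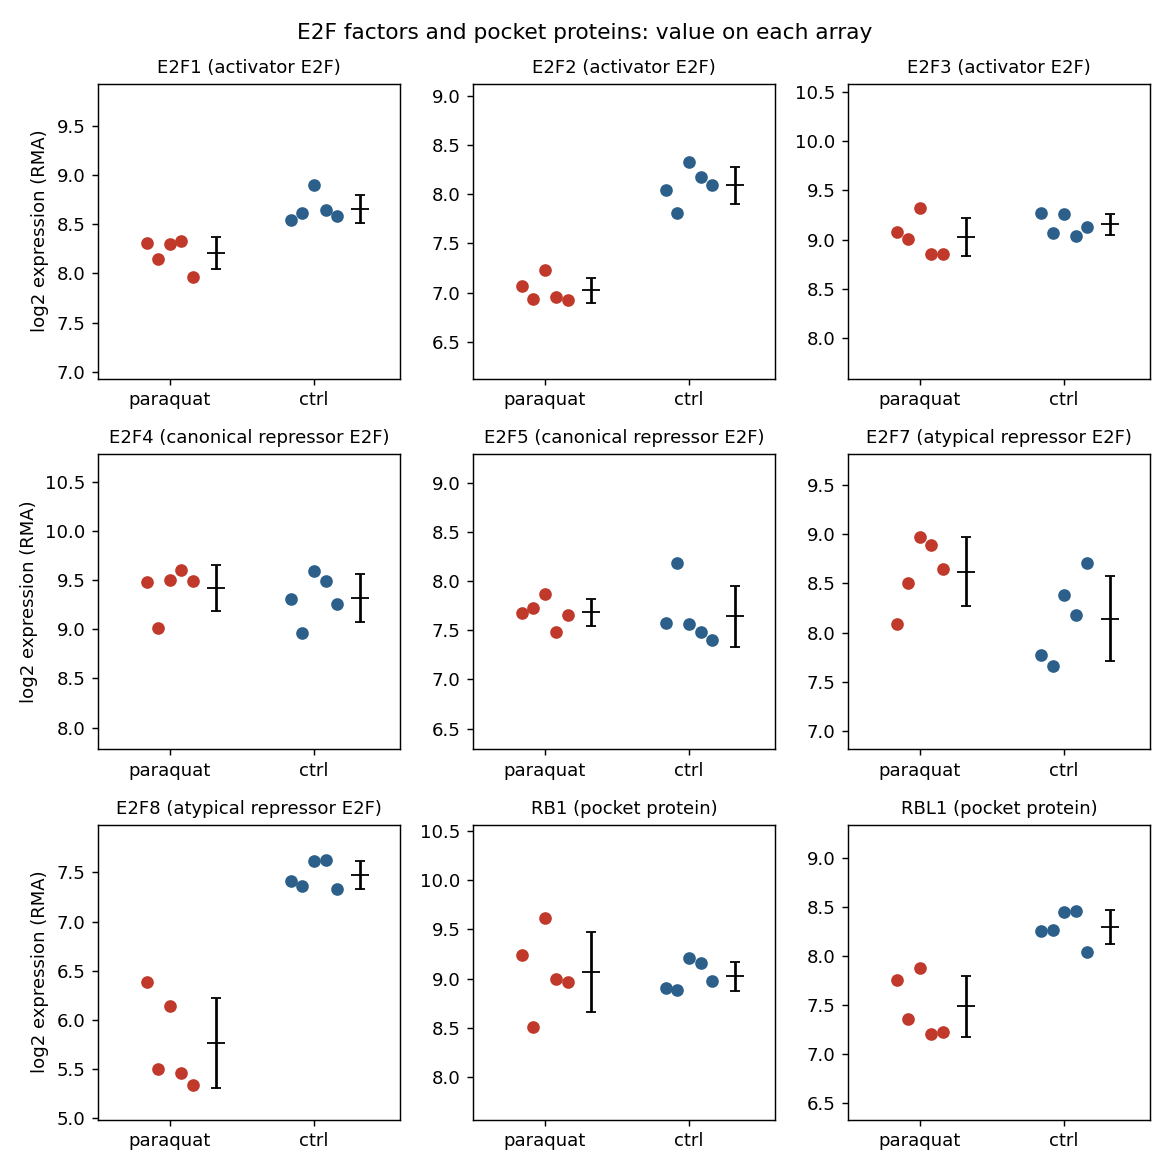
Values of the 9 genes on each array, on the authors' log2 RMA scale, with paraquat arrays in red and control arrays in blue in order of their number. Bars give the mean ± SD of 5 arrays, every panel spans 3 log2 units, and the groups are apart for E2F1, E2F2, E2F8 and RBL1 and overlap for the other genes.

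Among the activators, E2F2, which promotes S phase entry, had the largest change of the 3. E2F2 (transcript cluster 2401448, chromosome 1) had log2 values of 7.07, 6.94, 7.23, 6.96 and 6.92 on paraquat arrays 8, 12, 14, 18 and 20, against 8.04, 7.81, 8.33, 8.18 and 8.09 on control arrays 7, 11, 13, 17 and 19. Every paraquat array was below every control array. E2F2 fell by 1.07 ± 0.11 on the log2 scale (moderated SE, limma adjusted p = 5.77e-05), and the treated level was 0.478 of the control level.

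E2F1, the activator that can also trigger cell death, fell too. E2F1 (transcript cluster 3903146, chromosome 20) had log2 values of 8.31, 8.15, 8.30, 8.33 and 7.96 on the paraquat arrays, against 8.54, 8.61, 8.90, 8.65 and 8.58 on the control arrays. Every paraquat array was again below every control array. The decrease was 0.45 ± 0.10 (limma adjusted p = 0.0102), and it did not pass against a minimum fold of 1.2 (adjusted p = 0.342). Within arrays, the log2 ratio of E2F1 over E2F2 was 1.04 to 1.37 after paraquat and 0.46 to 0.80 in controls.

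E2F3, whose locus encodes isoforms with an activating and a more repressive role, did not pass. E2F3 (transcript cluster 2897576, chromosome 6) had 9.08, 9.01, 9.32, 8.85 and 8.85 on the paraquat arrays, against 9.27, 9.07, 9.26, 9.04 and 9.13 on the control arrays. The highest value of all 10 was a paraquat array, and so were the lowest ones. The log2 change was -0.13, with a 95% interval of -0.36 to 0.10 (limma adjusted p = 0.464). The isoforms cannot be separated at the level of transcript clusters. Within arrays, the log2 ratio of E2F3 over E2F2 was 1.90 to 2.09 after paraquat and 0.85 to 1.27 in controls, so the balance of these rows moved by 0.93. The log2 ratio of E2F3 over E2F1 was 0.53 to 1.02 after paraquat and 0.36 to 0.73 in controls, so its ranges overlapped, as those of the other 6 ratios computed did not. Ratios between these genes are given without a p, since the pairs were chosen with results known. Every ratio was taken over E2F1, E2F2, E2F8 or RBL1, which fell without overlap, so a rise of the ratio partly restates that fall by construction.

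Neither canonical repressor passed the test. The canonical repressor E2F4, the main E2F of resting cells, had values of 9.48, 9.01, 9.50, 9.60 and 9.49 on the paraquat arrays, against 9.31, 8.96, 9.59, 9.49 and 9.26 on the control arrays. Paraquat 12 and control 11 were the low arrays of their groups. The log2 change of E2F4 (transcript cluster 3665288, chromosome 16) was 0.09, with an interval of -0.22 to 0.41 (limma adjusted p = 0.727).

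E2F5, the other canonical repressor, had values of 7.67, 7.73, 7.87, 7.48 and 7.65 on the paraquat arrays, against 7.57, 8.18, 7.56, 7.48 and 7.40 on the control arrays. Control 11 stood far above the other controls. The log2 change of E2F5 (transcript cluster 3105467, chromosome 8) was 0.04, with an interval of -0.28 to 0.36 (limma adjusted p = 0.899). Without control 11 it was 0.18 (adjusted p = 0.236).

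E2F8, an atypical repressor made in S phase, showed the largest change of the set. E2F8 (transcript cluster 3365776, chromosome 11) had values of 6.38, 5.50, 6.14, 5.46 and 5.34 on the paraquat arrays, against 7.41, 7.36, 7.62, 7.63 and 7.33 on the control arrays. The controls lay close together, while paraquat 8 and 14 stood above the other treated arrays. E2F8 fell by 1.71 ± 0.19, with an interval of -2.13 to -1.28 (limma adjusted p = 0.000124), and the treated level was 0.306 of the control level. The mean of the paraquat arrays lay at or above that of 36.3% of rows, against 58.3% for the control mean. RMA can compress the fold changes of dim rows.

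E2F7, the partner of E2F8 in repressing E2F1 and a known p53 target, did not pass the test. E2F7 (transcript cluster 3463112, chromosome 12) had values of 8.09, 8.50, 8.97, 8.89 and 8.65 on the paraquat arrays, against 7.77, 7.66, 8.38, 8.18 and 8.71 on the control arrays. The groups overlapped through paraquat 8 and control 19. The log2 change was 0.48, with an interval of -0.0072 to 0.96 (limma adjusted p = 0.17). Without control 19 it was 0.62 (adjusted p = 0.0637). E2F7 passed in 1 alternative, chosen after the values were seen, which took arrays of adjacent title numbers as a replicate block (limma adjusted p = 0.0451). No label states such a pairing. The log2 ratio of E2F7 over E2F8 was 1.71 to 3.43 after paraquat and 0.30 to 1.38 in controls, a shift of 2.19, or 4.55-fold. Most of this shift was the log2 change of E2F8 (-1.71), and the change of E2F7 (0.48) did not pass.

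Of the pocket proteins, RBL1 fell. RBL1, known as p107 and made as cells pass through the cycle, had values of 7.76, 7.36, 7.88, 7.21 and 7.23 on the paraquat arrays, against 8.25, 8.26, 8.45, 8.46 and 8.04 on the control arrays. The groups did not overlap, and paraquat 8 and 14 were again the highest of the treated arrays. RBL1 (transcript cluster 3904747, chromosome 20) fell by 0.80 ± 0.15 (limma adjusted p = 0.00299), to 0.573 of the control level.

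RB1, the retinoblastoma tumour suppressor, had values of 9.24, 8.51, 9.62, 9.0 and 8.96 on the paraquat arrays, against 8.90, 8.88, 9.21, 9.16 and 8.97 on the control arrays. The treated arrays spread to both sides of the controls, with an SD of 0.407 after paraquat and 0.148 in controls. The log2 change of RB1 (transcript cluster 3489020, chromosome 13) was 0.04, with an interval of -0.35 to 0.43 (limma adjusted p = 0.919). The log2 ratio of RB1 over RBL1 was 1.14 to 1.78 after paraquat and 0.62 to 0.94 in controls.

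The row shared by RBL2, the p130 pocket protein of resting cells, and AKTIP had values of 7.55, 7.20, 7.54, 7.12 and 7.14 on the paraquat arrays, against 7.50, 7.86, 7.66, 7.56 and 7.17 on the control arrays. The groups overlapped (log2 change -0.24, interval -0.55 to 0.07, limma adjusted p = 0.3), and the signal cannot be assigned to either gene.

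**Figure D2:**
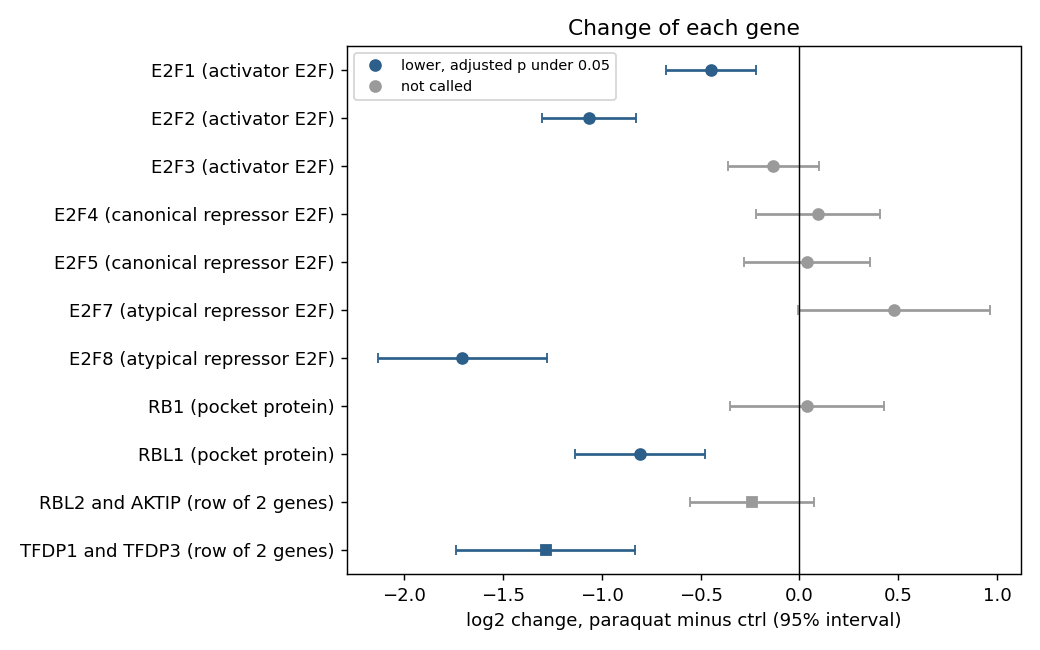
Log2 change, paraquat minus control, with its 95% interval for the 9 genes (circles) and for 2 rows that each cover a pair of genes (squares). Blue marks an adjusted p under 0.05, and the intervals of E2F1, E2F2, E2F8, RBL1 and the TFDP1 and TFDP3 row lie below 0.

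Paraquat 8 and 14 were the highest treated arrays for E2F2, E2F3, E2F8, RB1 and RBL1, that is for 5 of 9 genes, against 21.3% of all genes. Array medians were 6.85 and 6.92 for paraquat 8 and 14, and 6.78 to 6.93 over all 10 arrays. After median centring the count was again 5 of 9, against 14.6% of all genes. The pattern was noted after the values were seen, and its source was not tested.

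For the activator, the repressor and the pocket protein with the largest change, the 3 genes with the most similar values over the 10 arrays were listed by Pearson's correlation. The arrays form 2 groups that share the treatment difference, so a high r mainly reflects that difference, and r of the deviations from the group means is given too. The genes were picked by r over the same arrays, so both values are raised by that choice. Neither has a background here. Closest to E2F2 were TICRR, a factor of replication start (r = 0.994, deviations 0.946), MKI67, the proliferation antigen (0.991 and 0.863), and OBSL1 (0.99 and 0.866). Closest to E2F8 were NCAPD3, a condensin subunit (r = 0.994, deviations 0.952), FAM111B (0.994 and 0.948) and the choline transporter SLC44A1 (0.993 and 0.961). Closest to RBL1 were POLA2, a subunit of DNA polymerase alpha (r = 0.99, deviations 0.968), CDCA7 (0.987 and 0.951) and PRKAR2A, a regulatory subunit of protein kinase A (0.986 and 0.947).

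Most E2Fs bind DNA with a DP partner. Of 3 measured genes (TFDP2, TFDP3 and E2F6), 0 passed by limma, and 1 was lower at an unadjusted p under 0.05. By limma, 14.2% of all genes fell and 9.55% rose. TFDP2 had a log2 change of -0.38 (limma adjusted p = 0.0536) and was called lower without paraquat 8, without paraquat 14, with array weights and without dim rows. TFDP3 had a change of 0.09 (adjusted p = 0.752) and E2F6, a repressor that acts without pocket proteins, one of 0.35 (adjusted p = 0.416). TFDP3 had group means of 3.56 in paraquat and 3.47 in control, near the bottom of the range. The row assigned to both TFDP1, the main DP partner, and TFDP3 had values of 7.93, 8.40, 8.70, 8.24 and 7.93 on the paraquat arrays, against 9.04, 9.29, 9.61, 9.58 and 10.10 on the control arrays. The groups were apart, and this row fell by 1.28 ± 0.21 (limma adjusted p = 0.0012). It cannot be assigned to TFDP1 alone and was counted in no list.

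The cyclins and kinases that phosphorylate the pocket proteins were examined next. Of 8 measured genes, 4 fell and 0 rose, against 14.2% and 9.55% of all genes, with a median log2 change of -0.31. CCNA2 (cyclin A2, -1.31), CCNE2 (-1.15) and CCNE1 (cyclins E, -0.75) and their kinase CDK2 (-0.59) fell, with limma adjusted p between 0.000109 and 0.00298. The first 3 are also E2F targets. CCND1, the cyclin of early G1, had 11.80, 12.04, 11.91, 11.71 and 11.71 on the paraquat arrays, against 11.41, 11.66, 11.70, 11.56 and 11.45 on the control arrays. Its groups did not overlap, the lowest paraquat array lying just above the highest control. It did not pass (log2 change 0.28, limma adjusted p = 0.0675), but it was called higher after median centring and after quantile normalization. CCND3 (-0.03), CDK6 (0.08) and CCND2 (-0.0093, with a control mean of 3.67) did not pass.

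Of 6 inhibitors of these kinases, 2 rose and 0 fell, against 9.55% and 14.2% of all genes, with a median of 0.05. CDKN1A, the p21 inhibitor of CDK2 and a p53 target, had 11.13, 11.16, 11.43, 11.51 and 11.55 on the paraquat arrays, against 8.72, 8.79, 9.03, 8.97 and 8.91 on the control arrays. The groups lay far apart, a 5.54-fold rise (limma adjusted p = 1.98e-07). CDKN2B, the p15 inhibitor of CDK4 and CDK6, rose by 0.61 (adjusted p = 0.00161). CDKN1B (-0.52), CDKN1C (-0.05), CDKN2A (0.05) and CDKN2D (0.04) did not pass.

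The MuvB core joins E2F4 and p130 in resting cells, and MYBL2 and FOXM1 in dividing cells. Of 5 measured genes of this group, FOXM1, an activator of mitotic genes, fell (-1.02, limma adjusted p = 0.000591) and 0 rose, at a median of -0.55. Over all genes, 14.2% fell and 9.55% rose. MYBL2 (-0.37), LIN9 (-0.55), LIN54 (0.11) and RBBP4 (-0.58, a dim row with means of 3.98 in paraquat and 4.55 in control) did not pass. The number lowered was 2 without control 11 and 4 with array weights.

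Most E2F target genes of G1 to S and DNA synthesis fell. Of 36 measured, 27 fell and 0 rose, against 14.2% and 9.55% of all genes. The groups were apart for 28, all of them lower, against 11.6% of all genes lower without overlap. The list had a median log2 change of -0.69. The largest decreases were in RRM2, a subunit of ribonucleotide reductase (-1.72), UHRF1, which guides maintenance methylation of DNA (-1.40), GMNN, the inhibitor of origin licensing (-1.30), and CLSPN, an adaptor of the replication checkpoint (-1.14), with limma adjusted p between 3.53e-06 and 0.00166. CDT1, an origin licensing factor named here because it was the only measured gene of the list with a change above 0, had a log2 change of 0.21 (adjusted p = 0.243). The count was 16 against a minimum fold of 1.2.

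Genes of G2 and mitosis, which the DREAM and MYB-MuvB complexes control through other elements, fell in 22 of 22 measured cases, at a median of -1.37. The share that fell among all genes was 14.2%. HMMR (-2.80), a spindle-associated protein, MKI67 (-2.38), the mitotic kinase AURKA (-1.84) and the topoisomerase TOP2A (-1.78) changed most, with limma adjusted p between 3.44e-06 and 5.7e-05. Leaving out single arrays gave 20 to 22. The list means were 7.46 to 7.95 after paraquat and 8.98 to 9.43 in controls. The part of cell cycle distribution in the changes of E2F1, E2F2, E2F8 and RBL1 was not tested.

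**Figure D3:**
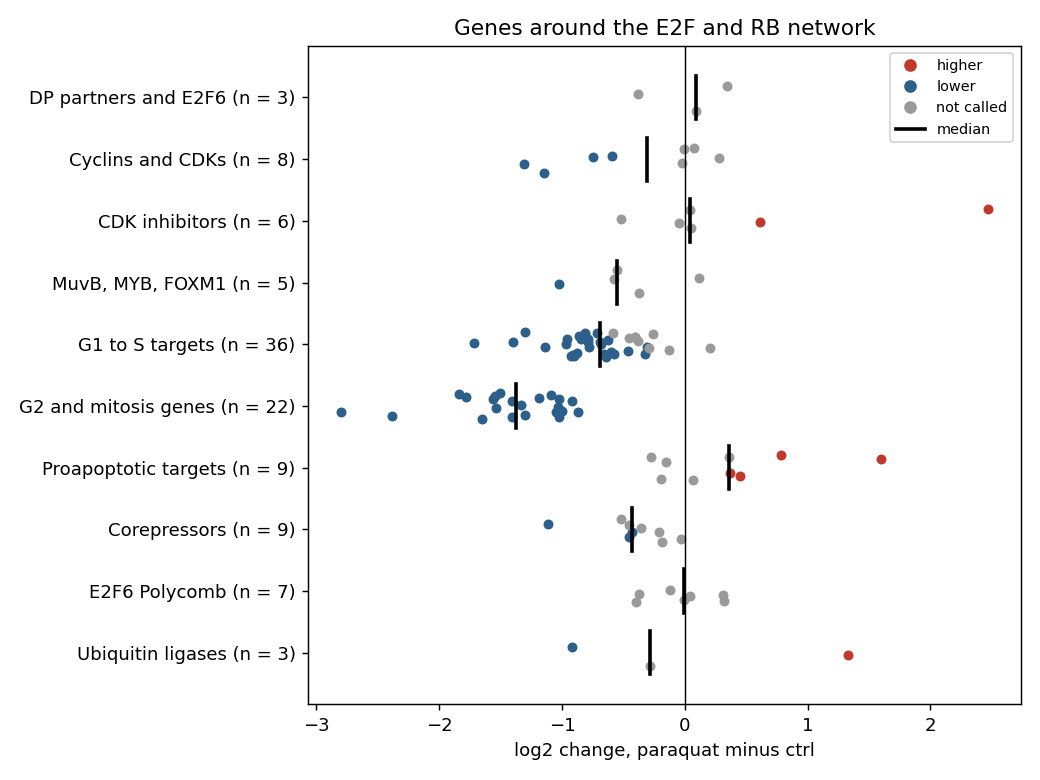
Log2 change, paraquat minus control, of each measured gene in 10 lists around the E2F and RB network, with red for higher, blue for lower, grey for not called and a black bar for the list median. The medians of the G2 and mitosis list (-1.37) and of the G1 to S list (-0.69) lie lowest. Those of the MuvB group (-0.55), corepressors (-0.43), cyclins and CDKs (-0.31), ubiquitin ligases (-0.28) and E2F6 Polycomb (-0.0067) are also below 0. The proapoptotic targets (0.36), DP partners and E2F6 (0.09) and CDK inhibitors (0.05) have medians above 0, and CDKN1A stands alone at 2.47.

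Proapoptotic genes known as E2F1 targets were read as well. Of 9 measured, 4 rose and 0 fell, against 9.55% and 14.2% of all genes, at a median of 0.36. PMAIP1 (1.59) and BBC3 (0.78), which also respond to p53, rose most, followed by BCL2L11 (0.45) and TP53BP2 (0.37), with limma adjusted p between 0.000178 and 0.0413. TP53BP2 lost its call without any one of controls 11, 13, 17 and 19 and paraquat 8, 14 and 20, that is without 7 of the 10 arrays (adjusted p 0.051 to 0.0925). The count was 2 at an adjusted p under 0.01 and 2 against a minimum fold of 1.2, and with array weights 1 fell (APAF1, which assembles the apoptosome). CASP8, a dim row with means of 4.16 in paraquat and 3.80 in control, was called higher with array weights (limma adjusted p = 0.0204). It was also called higher after median centring, without control 11 and without paraquat 8.

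Of 9 corepressors recruited by pocket proteins, 3 fell and 0 rose, against 14.2% and 9.55% of all genes, at a median of -0.43. SMARCA2, a chromatin remodelling ATPase, fell (-1.12), and so did SIN3A, a scaffold of deacetylase complexes (-0.46), and the deacetylase HDAC3 (-0.43; limma adjusted p between 7.47e-05 and 0.0323). SIN3A lost its call without any one of controls 7, 13 and 17 and paraquat 12, 18 and 20, that is without 6 of the 10 arrays (adjusted p 0.0561 to 0.08). The count was 5 without control 11 and paraquat 12, 5 with array weights and 1 against a minimum fold of 1.2.

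Of 7 rows taken for genes of the E2F6 Polycomb complex, 0 passed in either direction by limma. Over all genes, 14.2% fell and 9.55% rose. At an unadjusted p under 0.05, 2 were higher and 2 lower. These counts depended on single arrays: without control 11, and without paraquat 12, 1 rose and 1 fell, and without control 17, 1 rose. Without both control 11 and paraquat 12, 1 rose and 2 fell. With array weights 2 rose and 1 fell, without dim rows 1 rose and 1 fell, and after median centring and after quantile normalization 1 rose. MAX had a log2 change of 0.32 (adjusted p = 0.0519) and L3MBTL2 one of -0.40 (adjusted p = 0.0523). The row taken for MGA may be that of another gene that carries this name as a synonym, which was not checked. It is included in the 7 rows, in the list median and in the groups examined for outlying arrays, so these may rest in part on another gene. Of 3 genes of ubiquitin ligases that act on these proteins or their inhibitors, 1 fell and 1 rose, against 14.2% and 9.55% of all genes. SKP2, which drives p27 degradation, fell by 0.92 (limma adjusted p = 0.000926), and MDM2, the ligase of p53, rose by 1.33 (adjusted p = 8.26e-06). FZR1, an activator of the APC/C ligase, had a change of -0.28 (adjusted p = 0.0728) and was called lower without control 7 and with array weights.

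The promoter table was searched for the target lists too. Of 34 promoters of G1 to S targets, 22 (64.7%) held at least 1 of the 4 E2F motifs, against 5.56% of measured genes. Of 17 promoters of G2 and mitosis genes, 1 held one, while 12 (70.6%) held a CHR element (TTTGAA or TTCGAA on either strand), against 17.5% of measured genes. Among the 7 promoters of E2F and RB genes, 1 held a CHR element. Among G1 to S targets, 17 of 22 with an E2F motif fell, at a median of -0.78, and 8 of 12 without one, at a median of -0.64. A match is a description of the sequence and not a bound site.

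**Figure D4:**
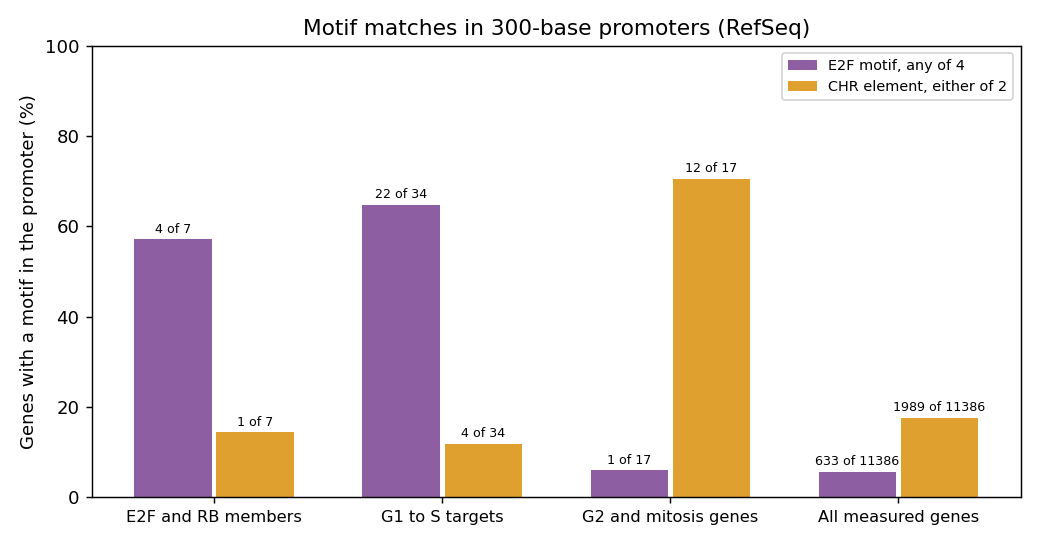
Share of genes whose 300-base RefSeq promoter held an E2F motif (purple) or a CHR element (orange), with the number of genes above each bar, for the E2F and RB genes, both target lists and all measured genes. E2F motifs were found in 4 of 7 and 22 of 34 promoters of the first groups, and CHR elements in 12 of 17 promoters of G2 and mitosis genes.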

How the data were processed

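Total RNA was depleted of ribosomal RNA and hybridised to Affymetrix GeneChip Exon 1.0 ST arrays, per the labels' protocols. The authors deposited 1 table of log2 expression values made with RMA, per the submitters' processing notes. Their range fits a log2 scale. No source used here names the RMA software, a filter or a genome build. Of 22011 rows, 14432 had 1 gene symbol, 2408 several and 5171 none; 14404 matched a RefSeq gene identifier. The row with the highest mean stood for a gene.

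Paraquat was compared with control by limma 3.58.1 under R 4.3.3, with group as the only term, no filter, two-sided tests and Benjamini-Hochberg adjustment over all rows. The model had 8 residual degrees of freedom and a prior of 3.06. It was tested on simulated data. Over all rows the moderated standard error had a median of 0.13, and precision is limited by the number of arrays. The p-values measure the spread between arrays, which may be technical. An exact two-sided permutation test served as an alternative and cannot go below p = 0.00794.

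The members and lists were chosen with earlier results of these data known. The text names every member, in longer lists up to 4 called genes with the largest changes, and in lists of up to 9 genes any gene. CDT1, APAF1 and CASP8 were picked with their values known. Marker genes were examined as lists. Alternatives were quantile normalization, median centring, removal of dim rows, array weights, a robust trend, a minimum fold, a stricter threshold and leaving out arrays.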

Additional observations from a re-analysis of the deposited data

Results flagged for a closer look

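Among 116 groups of 5 arrays examined, covering the members, the rows of 2 genes and the named list genes, 8 held an array set apart from the others by Dixon's test at the 95% level (critical value 0.71). Chance sets apart about 1 in 20 groups.

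For E2F4, paraquat 12 was the lowest treated array (9.01, others 9.48 to 9.60). For E2F5, control 11 was the highest control (8.18, others 7.40 to 7.57). Control 11 was also the highest control for CCNE2 (7.64, others 6.72 to 6.92) and PMAIP1 (8.72, others 7.76 to 7.92), and the lowest for L3MBTL2 (7.49, others 7.91 to 8.06). For BCL2L11, paraquat 14 was the highest treated array (7.95, others 7.36 to 7.53). For CCND2, paraquat 18 was the highest treated array (3.87, others 3.57 to 3.65). For the row taken for MGA, control 17 was the highest control (2.94, others 2.80 to 2.82). Both rows were near the bottom of the range.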

How the results depend on the processing

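The calls of E2F2, E2F8 and RBL1 held under all 20 alternatives run for each, with log2 changes of -1.17 to -1.01, -1.89 to -1.60 and -0.95 to -0.74. E2F1 (-0.45) lost its call against a minimum fold of 1.2 (adjusted p = 0.342) and at an adjusted p under 0.01 (adjusted p = 0.0102), which left 1 activator lowered in each case, and held under the other 18. E2F7 (0.36 to 0.62) did not pass under its alternatives except a replicate block (adjusted p 0.0451 to 0.322, apart from the minimum fold). RB1 changed sign with array weights (-0.053), and with single arrays left out it ranged from -0.0985 (without paraquat 14) to 0.18; E2F5 ranged from -0.020 (without control 19) to 0.18. None of these passed. The median of the E2F6 Polycomb list ranged from -0.080 (without paraquat 12) to 0.062 (without paraquat 14); the causes were not tested. Against the minimum fold, 735 rows rose and 913 fell, 545 genes rose and 772 fell, and 16 G1 to S targets fell. At an adjusted p under 0.01, 1068 rows rose and 1424 fell, and 818 genes rose and 1191 fell; fewer features pass a stricter rule by construction. Each member had 1 row, so averaging rows was not run. The groups share no title numbers and no label pairs them, but each control has a paraquat array with the next number, so these couples were taken as a replicate block after the values were seen (4 residual degrees of freedom). Deviations from the group means correlated at 0.226, 0.461, 0.091, 0.172 and 0.121 in the 5 couples, over 0.1 in 4 of them, and the adjacent control was the closest one for 3 of 5 paraquat arrays, so the pairing is a hint from the data. With the replicate block E2F7 was called higher (0.48, adjusted p = 0.0451), which gave 1 atypical repressor higher, and no other member changed its call. It called 2226 rows higher and 3153 lower, 6 corepressors, 3 MuvB group genes and 1 CDK inhibitor (CDKN1B) lower, CCND1 higher, and 2 E2F6 Polycomb genes in each direction. Signal over background could not be assessed, since detection calls were not used here.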

Other observations

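Outside the lists, genes with an E2F motif in the promoter were described as well. Of 601 such measured genes, 109 (18.1%) fell and 49 (8.15%) rose, with a median log2 change of -0.08. Of 10672 genes without a motif, 1481 (13.9%) fell and 1037 (9.72%) rose, with a median of -0.0058. With a CHR element, 320 of 1965 genes fell (16.3%), against 1270 of 9308 without (13.6%). These shares were not tested.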
